A study of Homo sapiens with 9 samples.

Results

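The 63 genes described here encode splicing factors. They are the protein-coding genes listed in both deposited tables whose symbols begin with HNRNP, SRSF, SF3A, SF3B, SNRP, PRPF or U2AF, leaving out HNRNPA0, HNRNPA1, HNRNPA2B1, HNRNPA3, HNRNPAB, HNRNPD and HNRNPDL, and they are 63 of 22741 genes listed in both tables. By role they are 7 Sm core proteins, 4 U1 and U2 snRNP proteins, 9 subunits of SF3A and SF3B, 4 U2AF genes, 13 PRPF factors, 11 SR proteins, 13 hnRNP proteins, and 2 genes with HNRNPA1-derived sequence, HNRNPA1L2 and HNRNPA1P48. The rule itself used gene names and no measured value, but it was set with earlier results of these data known.

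RNA-seq was performed on WiDr, a human colon adenocarcinoma cell line with mutant p53, 24 h after transfection with siRNA at 100 nM. A first group received control siRNA, and the others received LIMp27 siRNA-1 (called siRNA-1 below) or LIMp27 siRNA-2 (siRNA-2). LIMp27 is the long noncoding RNA LINC01356, and the 2 siRNAs were designed against it. Each group had 3 libraries, so that 9 libraries of 1 cell line were compared, with no untransfected cells among them. The question asked of each gene was whether its transcript level differed between a LIMp27 siRNA and control siRNA, and whether the 2 LIMp27 siRNAs differed from each other.

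Between 14361629 and 21524623 reads per library were assigned to genes. LINC01356 itself had 0 to 2 reads in every library, including those with control siRNA, so its knockdown could not be read from these counts. The epithelial markers KRT8 (5004 to 9199 CPM, counts scaled to library size by TMM) and EPCAM (674 to 785 CPM) were abundant in every library, the intestinal factor CDX2 was low at 0.682 to 2.09 CPM, and CDX1 was not listed. CEACAM5, another epithelial marker, was at 3.40 to 17.1 CPM. Of the 9 epithelial markers tested, 2 rose and 6 fell with siRNA-1 (median log2 fold change −0.28) and 3 rose and 5 fell with siRNA-2 (median −0.65), and their part in the results below was not tested. By the same test, 54.8% of all genes tested changed with siRNA-1 and 56.7% with siRNA-2. Of 9 markers of other cell types, COL1A1, CD68 and ALB were listed, the highest being COL1A1 at 6 to 26 reads a library. In cells measured in bulk, a lower level in all cells and fewer cells that express a gene cannot be told apart.

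Splicing removes introns in 2 chemical steps on the spliceosome, which is built on each intron from small nuclear ribonucleoproteins (snRNPs). U1 snRNP pairs with the 5′ splice site, the U2AF heterodimer reads the polypyrimidine tract and the AG at the 3′ splice site, and U2 snRNP with its SF3A and SF3B complexes is then seated on the branch site. The U4/U6.U5 tri-snRNP brings in the catalytic parts, several of which are PRPF proteins. SR proteins bind exons and generally favour their inclusion, while hnRNP proteins coat pre-mRNA and often act against inclusion, and several genes of both families hold down their own output by splicing in exons that expose the transcript to decay.

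Promoter sequences are shown for 6 of the genes whose responses the results below turn on, so that genes that rose and genes that fell can be set side by side. RefSeq promoters on the build GRCh38.p14 were matched by symbol for 54 of the 63 genes, and the 200 bases before the RefSeq start are printed 5′ to 3′ with any of the searched motifs in capitals. RefSeq starts differ from the gene positions in the deposited tables, which are given with each gene below, so that the windows of SRSF10, SF3B2, SNRPA and HNRNPH3 lie inside those positions and those of SF3B6 and PRPF18 reach into them. The windows are chr1:23980328-23980527 on the minus strand for SRSF10, chr2:24076327-24076526 on the minus strand for SF3B6, chr10:13586765-13586964 on the plus strand for PRPF18, chr11:66052164-66052363 on the plus strand for SF3B2, chr19:40751003-40751202 on the plus strand for SNRPA and chr10:68331493-68331692 on the plus strand for HNRNPH3. The first 3 genes were lower with siRNA-2, SF3B2 and SNRPA were higher with both siRNAs, and HNRNPH3 was higher with siRNA-1.
SRSF10: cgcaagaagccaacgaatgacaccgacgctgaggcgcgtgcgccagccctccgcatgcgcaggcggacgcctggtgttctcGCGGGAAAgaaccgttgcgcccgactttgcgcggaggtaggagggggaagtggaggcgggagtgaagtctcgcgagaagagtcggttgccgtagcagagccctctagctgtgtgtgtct
SF3B6: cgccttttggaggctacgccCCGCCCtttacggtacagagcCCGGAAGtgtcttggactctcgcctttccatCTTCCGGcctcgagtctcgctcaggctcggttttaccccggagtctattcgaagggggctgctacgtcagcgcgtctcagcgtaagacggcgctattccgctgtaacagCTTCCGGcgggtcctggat
PRPF18: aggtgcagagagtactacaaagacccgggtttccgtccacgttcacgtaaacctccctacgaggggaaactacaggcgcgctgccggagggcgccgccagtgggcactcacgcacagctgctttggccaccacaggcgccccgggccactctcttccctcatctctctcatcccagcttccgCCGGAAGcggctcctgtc
SF3B2: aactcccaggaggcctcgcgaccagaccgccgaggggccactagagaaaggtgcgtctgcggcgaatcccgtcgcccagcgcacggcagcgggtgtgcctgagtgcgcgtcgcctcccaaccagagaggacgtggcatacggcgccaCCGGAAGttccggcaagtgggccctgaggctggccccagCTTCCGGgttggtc
SNRPA: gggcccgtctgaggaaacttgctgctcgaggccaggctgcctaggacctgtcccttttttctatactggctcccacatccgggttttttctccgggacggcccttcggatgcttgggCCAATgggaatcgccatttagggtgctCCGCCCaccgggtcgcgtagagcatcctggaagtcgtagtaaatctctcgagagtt
HNRNPH3: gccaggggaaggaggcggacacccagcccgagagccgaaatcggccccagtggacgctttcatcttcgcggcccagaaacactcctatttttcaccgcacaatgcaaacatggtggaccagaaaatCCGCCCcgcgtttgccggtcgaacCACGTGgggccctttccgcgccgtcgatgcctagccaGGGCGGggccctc

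The motifs searched on both strands were TTTCCCGC, TTTGGCGC and TTTCGCGC for E2F factors, CACGTG for E-box factors, CCGGAAG for ETS factors, CCAAT, the GC box GGGCGG and TATAAA. TTTCCCGC and the reverse complement of GGGCGG can share bases. SRSF10 holds TTTCCCGC on the reverse strand, SF3B6 (which also holds a GC box) and SF3B2 hold CCGGAAG more than once, PRPF18 holds it once, SNRPA holds CCAAT and a GC box, and HNRNPH3 holds CACGTG and GC boxes. Windows not printed include those of SRSF1, HNRNPH1, SNRPE, SRSF9, SRSF11 and U2AF1L4, which hold none of the motifs. CCGGAAG was found in 17 of 54 windows (31.5%), against 7.71% of all 35116 RefSeq promoter windows of that length, and an E2F motif in 3 of 54 (5.56%) against 1.89%. CCAAT was in 38.9% of these windows against 28.0%, GGGCGG in 53.7% against 40.1%, CACGTG in 7.41% against 5.49%, and TATAAA in 3.70% against 8.59%. That background was not limited to protein-coding genes or to genes expressed in WiDr, so these shares do not compare like sets. In the 17 genes with CCGGAAG the median of the log2 fold changes was −0.08 with siRNA-1, and −0.12 with siRNA-2, beside −0.00 and −0.10 in genes without it, and these medians are a description with no test. A match says only that the letters are in the window.

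Levels per length in the control libraries, as the FPKM (fragments scaled to gene length and library size) that the authors deposited, ran over more than 3 orders of magnitude. HNRNPK, a poly-C binding protein, stood highest at 644 ± 8.64 FPKM (SD, n = 3), followed by HNRNPC, which binds uridine tracts, at 619 ± 2.16 FPKM, and U2AF2, the large U2AF subunit, at 460.0 ± 23.5 FPKM. HNRNPF was next at 360.4 ± 2.21 FPKM. All 7 Sm genes lay between 71.3 (SNRPD1) and 337 (SNRPD2), although their proteins enter the Sm ring in equal numbers. The 9 SF3A and SF3B genes lay between 93.8 (SF3A2) and 301 (SF3B1), and the 11 SR genes between 24.3 (SRSF8) and 299 (SRSF3). SRSF3 and SRSF2 (290.0 ± 6.24 FPKM) lay within their SDs of each other, and so did SF3B1 and SRSF3. PRPF genes ran from 5.89 (PRPF40B) to 319.7 (PRPF19). U2AF genes had the widest range, from U2AF2 down to the members at the bottom, U2AF1 at 0.397 ± 0.297 FPKM, U2AF1L4 and U2AF1L5.

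**Figure D1:**
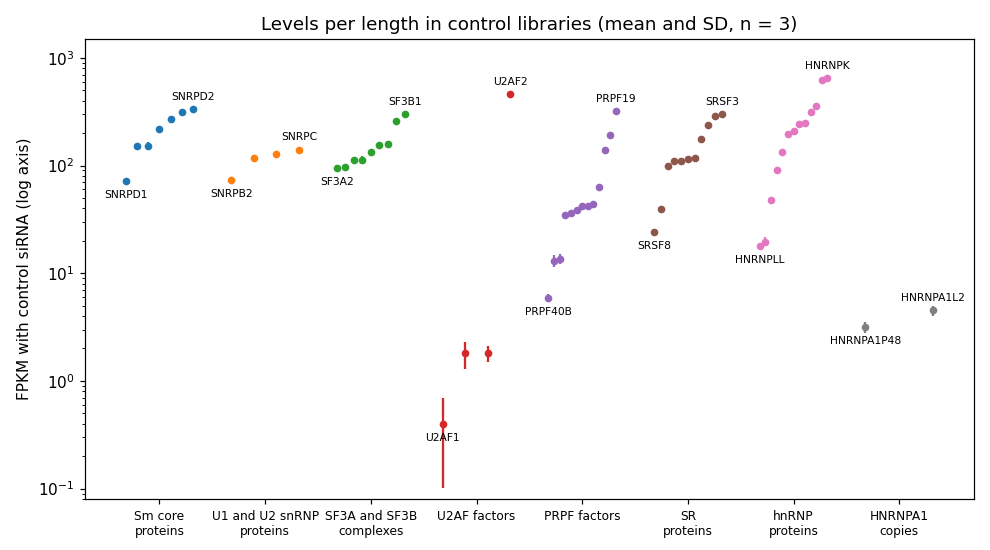
Deposited FPKM in the 3 control siRNA libraries for each of the 63 splicing factor genes, by role, on a log axis; points are means and bars SDs (n = 3), and the lowest and highest gene of each role is named. HNRNPK and HNRNPC stand at the top, and U2AF1 at the bottom with the widest bar on this axis.

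The low value of U2AF1 belongs to a pair of near-identical genes. U2AF1, the small U2AF subunit on chromosome 21, and U2AF1L5 shared 94.3% of their 50-base transcript windows with each other, and how reads that match both were counted is not given in the sources used here. U2AF1 had 7, 7 and 24 reads with control siRNA, 12, 12 and 9 with siRNA-1 and 9, 9 and 4 with siRNA-2. It passed the filter on low counts in the comparison of siRNA-1 with control and in the direct comparison of the 2 siRNAs, but not in that of siRNA-2 with control, so that 63 members were tested with siRNA-1, 62 with siRNA-2, and 63 in the direct comparison. No call is drawn for U2AF1, U2AF1L4 or U2AF1L5 in any of them.

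With siRNA-1, 16 members rose and 22 fell at an adjusted p under 0.05. With siRNA-2, 9 rose and 28 fell. The changes were small: the median absolute log2 fold change of members was 0.16 with siRNA-1 and 0.20 with siRNA-2, against 0.28 and 0.33 over all genes tested. Changes were tested with edgeR's quasi-likelihood test on the raw counts of all genes, with Benjamini-Hochberg adjustment over all genes, and all adjusted p-values below come from it. Fold changes are log2 with standard errors (SE), from 3 libraries against 3, and the p-values measure the spread between these libraries only.

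These counts stand beside a very broad response. Over all 14347 genes tested, 54.8% were called with siRNA-1, 26.5% higher and 28.3% lower, so that the members (60.3% called, 25.4% higher and 34.9% lower) were near the background in the higher direction. Over all 14204 genes tested with siRNA-2, 56.7% were called, 27.7% higher and 29.0% lower, and among the 62 members tested 59.7% were called, 14.5% higher and 45.2% lower. The median log2 fold change of members was −0.03 with siRNA-1 and −0.11 with siRNA-2, beside 0.00 and 0.01 over all genes. The 2 comparisons share the control libraries and are not independent.

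Both counts depend on the scaling. With upper-quartile normalization, 61.5% of all calls with siRNA-1 were higher instead of 48.3%, and 59.1% instead of 48.9% with siRNA-2. Members then split into 23 higher and 14 lower with siRNA-1 and into 17 higher and 23 lower with siRNA-2. GC content of the transcripts moved with the result: members that rose had a median GC of 53.9% with siRNA-1 and 54.7% with siRNA-2, and those that fell 43.4% and 43.9%. The Spearman correlation of GC with log2 fold change was 0.37 and 0.34 among members, and 0.19 with each siRNA over all genes. Between siRNA-2 and siRNA-1 directly, it was 0.01 among members and 0.03 over all genes. With offsets for GC content and length per library, a correction added after the data were seen, the split was 17 higher and 18 lower with siRNA-1, and 17 higher and 23 lower with siRNA-2; whether base composition is part of the result was not tested.

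**Figure D2:**
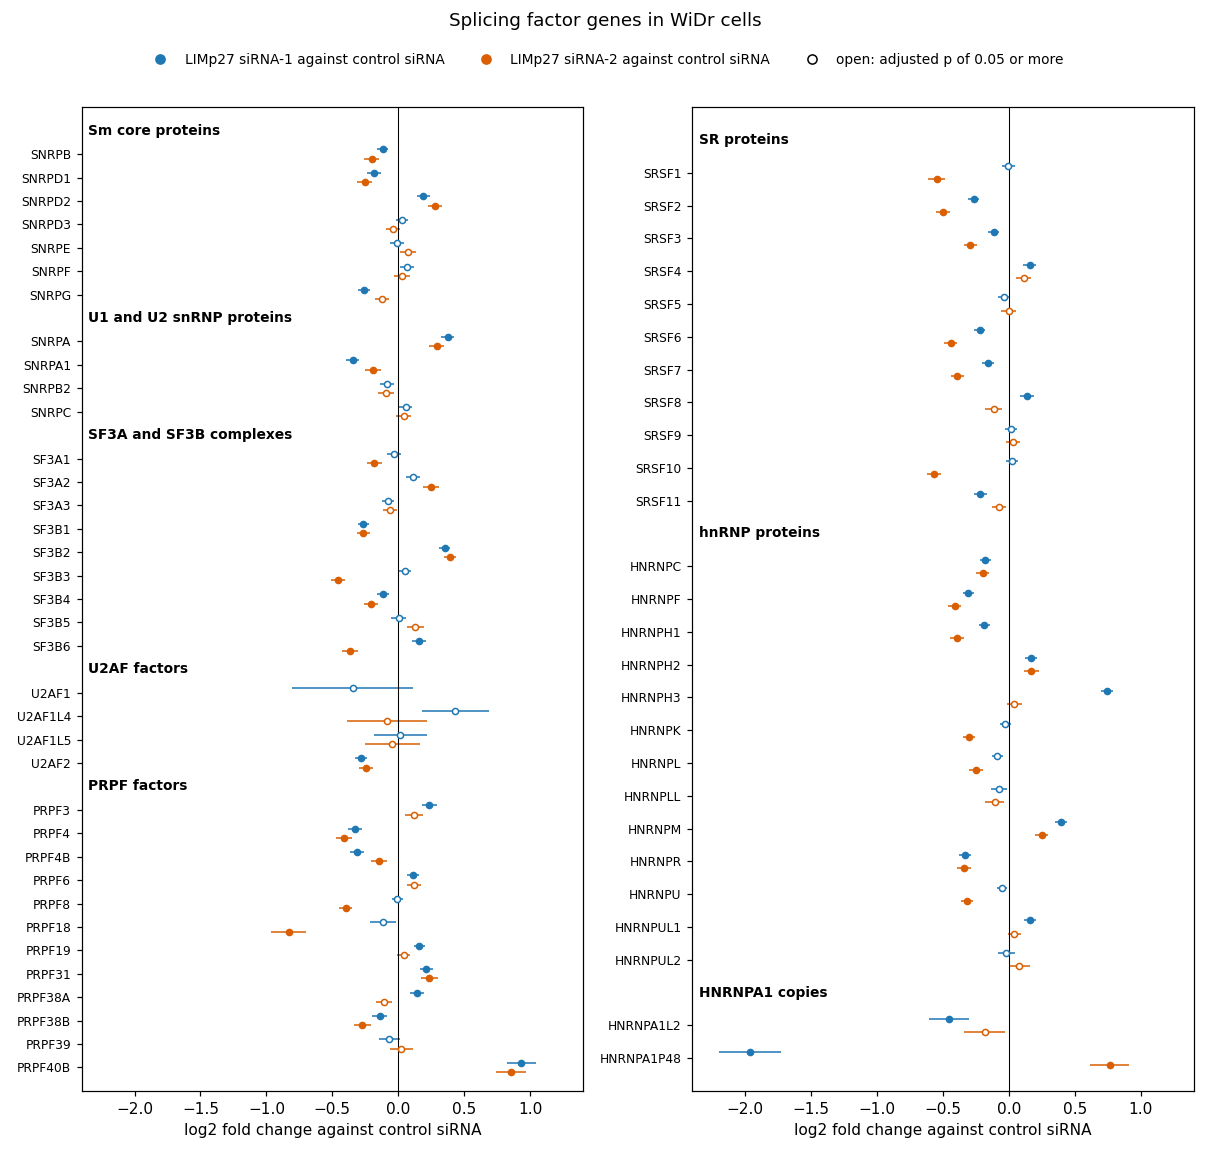
Log2 fold change against control siRNA for 62 of the 63 splicing factor genes by role, with standard errors (3 libraries per group); filled points had an adjusted p under 0.05 and open points did not. SR proteins lie mostly to the left with siRNA-2, PRPF40B lies to the right with both siRNAs, and HNRNPA1P48 lies far left with siRNA-1 and right with siRNA-2.

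**Figure D3:**
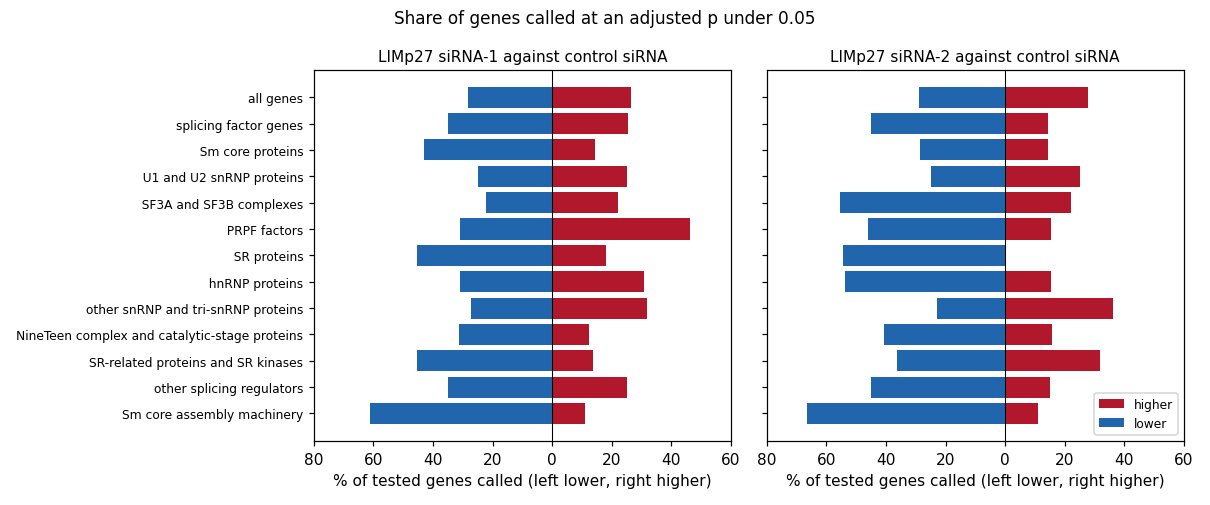
Percentage of tested genes called lower (left) and higher (right) at an adjusted p under 0.05, over all genes, over the 63 splicing factor genes and 6 of their roles (indented), and over 5 lists of other splicing genes, for each LIMp27 siRNA against control siRNA. With siRNA-2, 6 of 11 SR protein genes and 12 of 18 genes of the Sm core assembly machinery were called lower, against 29.0% of all genes.

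Of the 11 SR genes, 6 fell and 0 rose with siRNA-2 in edgeR's test, with a median log2 fold change of −0.29. The others were SRSF4 (0.11), SRSF5 (−0.00), SRSF8 (−0.12), SRSF9 (0.03) and SRSF11 (−0.07), which were not called. The count of 0 higher depends on the processing: SRSF4, SRSF5 and SRSF11 were called higher with the GC and length offsets, SRSF4 and SRSF9 with upper-quartile normalization. With siRNA-1, 5 of 11 fell and 2 rose, SRSF4 and SRSF8, and the median was −0.04. In all, 63.6% of SR genes were called with siRNA-1 and 54.5% with siRNA-2, against 54.8% and 56.7% over all genes. The summed level of the 11 genes was 2587 to 2644 CPM with control siRNA, 2383 to 2463 with siRNA-1 and 2113 to 2167 with siRNA-2. Under TMM, the only scaling summed, the 3 groups of libraries did not overlap. Upper-quartile normalization moved the log2 fold changes of all genes up, by a median of 0.09 with siRNA-1 and 0.08 with siRNA-2. Whether the sums stay apart under it was not tested, and the SR median with siRNA-1 (−0.04) was smaller in size than that shift.

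SRSF1, the founding SR protein and a regulator of many cassette exons, lies at chr17:58003360-58007346 (GRCh38). Its levels were 135, 123 and 142 CPM with control siRNA, 133, 137 and 129 with siRNA-1 and 97.2, 86.0 and 89.1 with siRNA-2. Libraries with siRNA-2 all lay below the others, while those with siRNA-1 lay among the controls. SRSF1 had log2 fold changes of −0.00 ± 0.05 (adjusted p = 0.949) with siRNA-1 and −0.55 ± 0.06 (adjusted p = 1.37e-08) with siRNA-2. Of its exonic bases, 56.6% overlap AC015813.2 on the same strand, a gene that is not among those listed in both tables.

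SRSF10, a repressor of splicing when dephosphorylated, lies at chr1:23964804-23980927. It stood at 194, 183 and 192 CPM with control siRNA, 189, 200.5 and 188 with siRNA-1 and 129.6, 125 and 126 with siRNA-2. Again only the siRNA-2 libraries were apart from control, all 3 below. The corresponding log2 fold changes were 0.02 ± 0.04 (adjusted p = 0.665) with siRNA-1 and −0.57 ± 0.05 (adjusted p = 3.02e-10) with siRNA-2, the latter the lowest among SR genes. With upper-quartile normalization and with the GC and length offsets, SRSF10 was also called higher with siRNA-1, at up to 0.16.

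SRSF2 and SRSF6, which read exonic enhancers, fell with each siRNA. SRSF2 (chr17:76734115-76737374) was at 382, 383 and 371 CPM with control siRNA, 321, 309 and 312 with siRNA-1 and 266, 279 and 255 with siRNA-2. The 3 groups did not overlap, and the fold changes were −0.26 ± 0.04 (adjusted p = 3.64e-06) and −0.50 ± 0.05 (adjusted p = 2.02e-09). SRSF6 (chr20:43457928-43464247) was at 343, 346 and 355 CPM with control siRNA, 299, 291 and 303 with siRNA-1 and 259, 255 and 251 with siRNA-2, also without overlap between groups. Its log2 fold changes were −0.22 ± 0.04 (adjusted p = 4.8e-05) and −0.44 ± 0.05 (adjusted p = 9.95e-09), and the first did not pass with the GC and length offsets. MFSD11 overlaps 36.7% of the exonic bases of SRSF2 on the opposite strand, and whether the counting used strand is not given; MFSD11 itself had log2 fold changes of 0.03 ± 0.07 (adjusted p = 0.728) and 0.12 ± 0.08 (adjusted p = 0.165).

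SRSF7 and SRSF3, SR proteins that also act as adaptors for mRNA export, followed with smaller changes. SRSF7 had log2 fold changes of −0.16 ± 0.05 (adjusted p = 0.00452) with siRNA-1 and −0.39 ± 0.05 (adjusted p = 1.24e-07) with siRNA-2. For SRSF3 these were −0.11 ± 0.04 (adjusted p = 0.021) and −0.29 ± 0.05 (adjusted p = 7.32e-06). The falls of SRSF7 and SRSF3 with siRNA-1 did not pass with upper-quartile normalization or with the GC and length offsets, under which SRSF3 stood at 0.01. SRSF11 was lower with siRNA-1 (−0.22, adjusted p = 0.000389) and stood at −0.07 with siRNA-2 (adjusted p = 0.245), and the first call was lost with the GC and length offsets, at −0.09. SRSF4 (0.16, adjusted p = 0.00838) and SRSF8 (0.14, adjusted p = 0.035) were higher with siRNA-1, and neither was called with siRNA-2. The SRSF8 call did not pass with DESeq2, with no filter or in 1 fit over all 9 libraries. The calls of SRSF4 (without replicate 1 or replicate 2 of both groups) and SRSF8 (without control siRNA replicate 2 or any siRNA-1 library) were lost when libraries were left out, where their log2 fold changes stayed above 0. Those of SRSF3 and SRSF7 with siRNA-1 were lost without siRNA-1 replicate 3, and that of SRSF3 also without control siRNA replicate 1. SRSF5 and SRSF9 were called with neither siRNA.

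Among the 13 hnRNP genes, 4 rose and 4 fell with siRNA-1, and 2 rose and 7 fell with siRNA-2. That was 61.5% called with siRNA-1 and 69.2% with siRNA-2, against 54.8% and 56.7% over all genes. The summed level of the hnRNP genes was 5454 to 5475 CPM with control siRNA, 5252 to 5373 with siRNA-1 and 4605 to 4789 with siRNA-2. These sums were also formed under TMM only. Upper-quartile normalization moved the log2 fold changes of all genes up, by a median of 0.09 with siRNA-1 and 0.08 with siRNA-2. Whether the hnRNP sums stay apart under it was not tested. The median log2 fold change of the hnRNP genes with siRNA-1 (−0.05) was smaller in size than that shift. HNRNPF, which binds G-runs, fell with each siRNA, HNRNPM, which binds GU-rich sequence, rose with each, and HNRNPH3, a relative of HNRNPF, rose with siRNA-1.

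HNRNPH3 (chr10:68331174-68343191) was at 155, 146 and 157 CPM with control siRNA, 247, 265 and 252 with siRNA-1 and 158, 146 and 166 with siRNA-2. Every siRNA-1 library was above the other 6, and the siRNA-2 libraries overlapped the controls. It had log2 fold changes of 0.74 ± 0.05 (adjusted p = 4.16e-14) with siRNA-1 and 0.04 ± 0.06 (adjusted p = 0.549) with siRNA-2. With the GC and length offsets it was also called higher with siRNA-2, at 0.24. Its change with siRNA-1 was 1.67-fold and the highest among hnRNP genes in that comparison.

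HNRNPF (chr10:43385617-43409166) was at 774, 759 and 772 CPM with control siRNA, 611, 625 and 621 with siRNA-1 and 579, 565 and 579 with siRNA-2. All control libraries were above all others. The log2 fold changes were −0.31 ± 0.04 (adjusted p = 1.8e-07) and −0.41 ± 0.05 (adjusted p = 1.3e-08). HNRNPM (chr19:8444767-8489114) was at 335, 324 and 317 CPM with control siRNA, 410.1, 428 and 441 with siRNA-1 and 366, 404 and 384 with siRNA-2, with every LIMp27 siRNA library above every control. Its log2 fold changes were 0.39 ± 0.04 (adjusted p = 6.6e-09) and 0.25 ± 0.05 (adjusted p = 0.000151).

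HNRNPH1, a relative of HNRNPF that also binds G-runs, was at 353, 352 and 357 CPM with control siRNA, 315, 308 and 309 with siRNA-1 and 276, 251 and 278 with siRNA-2. The 3 groups did not overlap. Log2 fold changes of HNRNPH1 were −0.18 ± 0.04 (adjusted p = 0.000355), a call not kept with upper-quartile normalization, and −0.39 ± 0.05 (adjusted p = 1.86e-07). HNRNPR, an RNA-binding protein also found in transport granules, was at 272, 269.5 and 263 CPM with control siRNA, 212, 214 and 211 with siRNA-1 and 205, 200.3 and 227 with siRNA-2. Both LIMp27 siRNA groups lay below control and overlapped each other, with log2 fold changes of −0.33 ± 0.04 (adjusted p = 1.02e-07) and −0.34 ± 0.05 (adjusted p = 3.91e-06).

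HNRNPK, HNRNPU and HNRNPL, which bind C-rich sequence, chromatin-associated RNA and CA repeats, respectively, were lower with siRNA-2 and not called with siRNA-1. With siRNA-2 the values were −0.30 ± 0.05 (adjusted p = 2.55e-06) for HNRNPK, −0.31 ± 0.05 (adjusted p = 1.2e-06) for HNRNPU and −0.25 ± 0.05 (adjusted p = 0.000115) for HNRNPL, and that of HNRNPU did not pass with the GC and length offsets. HNRNPC fell in each comparison (−0.18, adjusted p = 0.000521, and −0.20, adjusted p = 0.000784), HNRNPH2 rose in each (0.17, adjusted p = 0.00301, and 0.17, adjusted p = 0.0128), and HNRNPUL1 rose with siRNA-1 (0.16, adjusted p = 0.00259). The first call of HNRNPC was lost with upper-quartile normalization and the second with the GC and length offsets. HNRNPUL1 lost its call without replicate 3 of both groups, and HNRNPH2 lost that with siRNA-1 without replicate 2 of both groups and that with siRNA-2 without control siRNA replicate 2 or siRNA-2 replicate 3. HNRNPLL and HNRNPUL2 were called in neither.

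**Figure D4:**
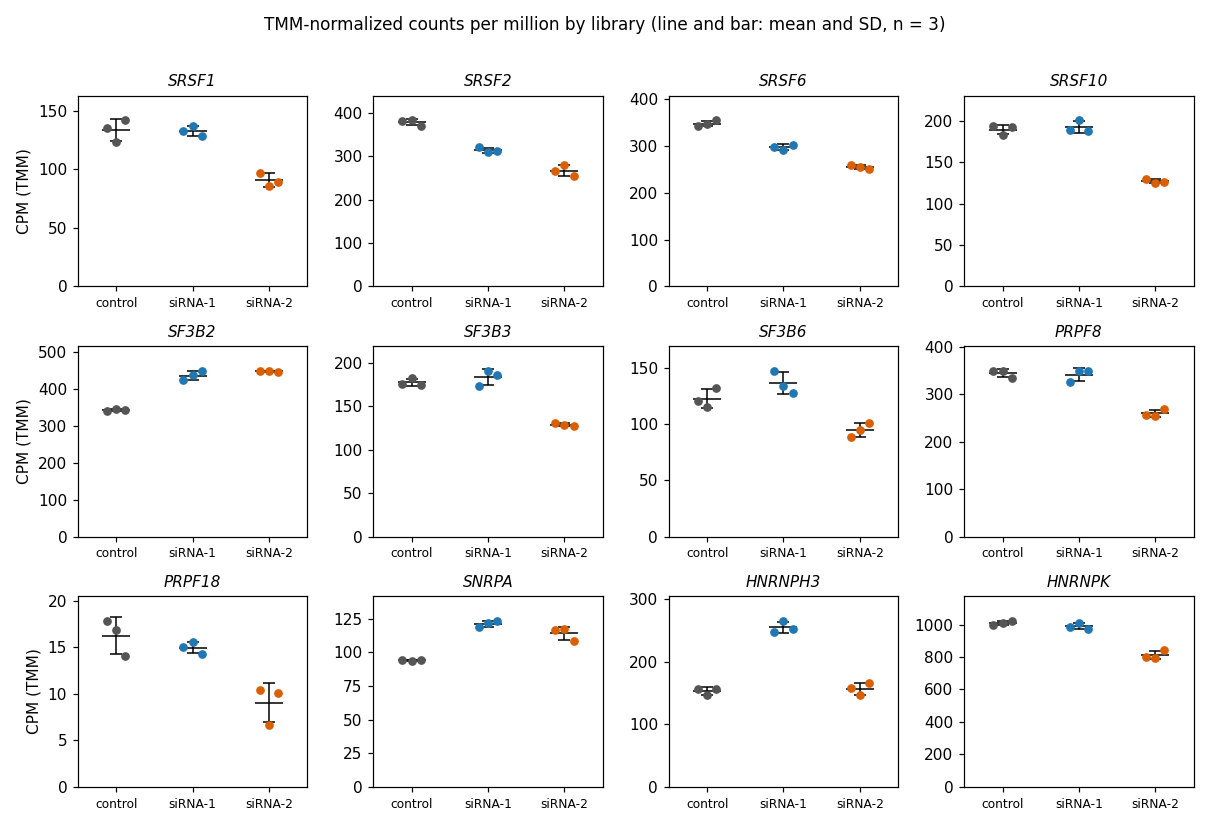
TMM-normalized CPM in each of the 9 libraries for 12 splicing factor genes; dots are libraries, and the line and bar are the mean and SD (n = 3). SRSF1, SRSF10, SF3B3, SF3B6, PRPF8, PRPF18 and HNRNPK are lower in the 3 siRNA-2 libraries alone, HNRNPH3 is higher in the 3 siRNA-1 libraries alone, and SF3B2 and SNRPA are higher in all 6 LIMp27 siRNA libraries.

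The 2 genes derived from HNRNPA1 stand apart from the rest. HNRNPA1P48, labelled protein-coding in the tables (chr16:51553436-51647132), was at 5.54, 4.62 and 4.50 CPM with control siRNA, 0.828, 0.992 and 1.81 with siRNA-1 and 7.85, 8.27 and 8.73 with siRNA-2. The siRNA-1 libraries were the lowest and those with siRNA-2 the highest, with no overlap. HNRNPA1P48 had log2 fold changes of −1.96 ± 0.24 (adjusted p = 4.61e-08) with siRNA-1 and 0.76 ± 0.15 (adjusted p = 6.93e-05) with siRNA-2. HNRNPA1L2 was at 6.84, 5.65 and 6.98 CPM with control siRNA, 5.03, 4.23 and 4.94 with siRNA-1 and 6.30, 5.41 and 5.25 with siRNA-2. It fell with siRNA-1 (−0.45 ± 0.15, adjusted p = 0.0115), a call not kept with DESeq2, without control siRNA replicate 1 or without siRNA-1 replicate 2, and had −0.18 ± 0.15 (adjusted p = 0.314) with siRNA-2.

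HNRNPA1P48 shares 48.6% of its 50-base transcript windows with HNRNPA1, and HNRNPA1L2 shares 47.6%. HNRNPA1 itself, which is no member here, had log2 fold changes of −2.19 ± 0.04 (adjusted p = 1.12e-25) with siRNA-1 and 0.22 ± 0.05 (adjusted p = 0.00018) with siRNA-2, at a mean of 1356 CPM with control siRNA against under 10 CPM for each copy. Reads of HNRNPA1 placed on the copies and reads of the copies cannot be told apart in these counts.

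The SF3A and SF3B complexes, which together with U2 snRNA recognise the branch site, split in both directions. With siRNA-1, 2 of 9 rose and 2 fell, and with siRNA-2, 2 rose and 5 fell. That was 44.4% called with siRNA-1 and 77.8% with siRNA-2, against 54.8% and 56.7% over all genes. SF3B2 rose and SF3B1 fell with each siRNA, while SF3B3 and SF3B6 fell with siRNA-2.

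SF3B2 (chr11:66050729-66069308), a subunit of SF3B that contacts pre-mRNA near the branch site, was at 339.6, 345 and 343 CPM with control siRNA, 423, 436 and 447 with siRNA-1 and 449, 447 and 444 with siRNA-2. All 6 LIMp27 siRNA libraries were above all controls. It had log2 fold changes of 0.35 ± 0.04 (adjusted p = 3.09e-08) with siRNA-1 and 0.39 ± 0.05 (adjusted p = 5.5e-08) with siRNA-2. SF3B1 (chr2:197389784-197435091), the large scaffold subunit and often mutated in myelodysplastic syndromes, was at 407, 412 and 418 CPM with control siRNA, 336, 349.6 and 341 with siRNA-1 and 346, 331 and 348 with siRNA-2. All 6 lay below all controls, with log2 fold changes of −0.27 ± 0.04 (adjusted p = 3.11e-06) and −0.26 ± 0.05 (adjusted p = 3.49e-05), the second of which did not pass with the GC and length offsets.

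SF3B3 (chr16:70523788-70577670), a β-propeller subunit, was at 175, 183 and 175 CPM with control siRNA, 174, 191 and 186 with siRNA-1 and 131, 128 and 127 with siRNA-2. The siRNA-2 libraries lay below the other 6, and the fold changes were 0.05 ± 0.05 (adjusted p = 0.349) and −0.46 ± 0.05 (adjusted p = 2.15e-08). SF3B3 was also called higher with siRNA-1 under upper-quartile normalization. SF3B6 (chr2:24067584-24076443), the subunit that touches the branch-point adenosine, was at 121, 116 and 133 CPM with control siRNA, 148, 134 and 128 with siRNA-1 and 89.1, 94.6 and 102 with siRNA-2. With siRNA-1 its libraries overlapped the controls and with siRNA-2 they lay below them. The log2 fold changes of SF3B6 were 0.16 ± 0.05 (adjusted p = 0.0167) and −0.36 ± 0.06 (adjusted p = 1.18e-05), and the first was lost without control siRNA replicate 1, control siRNA replicate 2 or siRNA-1 replicate 1.

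Of the other subunits, SF3B4 fell in each comparison (−0.12, adjusted p = 0.0379, and −0.21, adjusted p = 0.00213), neither of which passed with upper-quartile normalization. SF3A1 fell (−0.18, adjusted p = 0.00731) and SF3A2 rose (0.25, adjusted p = 0.00123) with siRNA-2. The call of SF3B4 with siRNA-1 was also lost without control siRNA replicate 1 or 2 and without siRNA-1 replicate 1 or 2. With DESeq2 and in 1 fit over all 9 libraries it was lost as well. SF3A1 did not pass with upper-quartile normalization, nor SF3A2 with the GC and length offsets, and neither passed without replicate 2 of both groups. SF3A3 and SF3B5 were called in neither comparison.

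U2AF2, which binds the polypyrimidine tract next to the branch site (chr19:55654146-55674715), was at 549, 571 and 520.3 CPM with control siRNA, 467, 439 and 439 with siRNA-1 and 453, 469 and 455 with siRNA-2. Each LIMp27 siRNA library lay below each control. U2AF2 had log2 fold changes of −0.28 ± 0.04 (adjusted p = 3.42e-06) with siRNA-1 and −0.24 ± 0.05 (adjusted p = 0.000137) with siRNA-2.

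U1 and U2 snRNP proteins moved in opposite directions within the group. SNRPA, the U1-A protein (chr19:40750637-40765389), was at 94.3, 93.6 and 94.3 CPM with control siRNA, 119, 122 and 124 with siRNA-1 and 117, 118 and 109 with siRNA-2, with the controls lowest. It had log2 fold changes of 0.37 ± 0.05 (adjusted p = 7.7e-08) with siRNA-1 and 0.29 ± 0.06 (adjusted p = 8.23e-05) with siRNA-2. SNRPA1, the U2-A′ protein (chr15:101281510-101295282), was at 112, 105 and 115 CPM with control siRNA, 89.7, 84.4 and 85.9 with siRNA-1 and 104, 89.3 and 94.8 with siRNA-2, and all control libraries were above the rest. Its log2 fold changes were −0.35 ± 0.05 (adjusted p = 9.55e-07) and −0.19 ± 0.06 (adjusted p = 0.00973), the second lost with upper-quartile normalization and without siRNA-2 replicate 2. SNRPB2 and SNRPC, the U2-B″ and U1-C proteins, were called in neither comparison. The summed level of these 4 genes was 415 to 446 CPM with control siRNA, 425 to 440.4 with siRNA-1 and 422 to 447 with siRNA-2. These ranges overlapped under TMM, the only scaling summed.

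The 7 proteins of the Sm genes form the ring around each Sm-class snRNA. Of these genes, 57.1% were called with siRNA-1 and 42.9% with siRNA-2, against 54.8% and 56.7% over all genes. With siRNA-1, 1 rose and 3 fell, and with siRNA-2, 1 rose and 2 fell. SNRPD2 was at 217, 209.7 and 199 CPM with control siRNA, 250.1, 222 and 239.5 with siRNA-1 and 254, 257 and 242 with siRNA-2. Libraries with either LIMp27 siRNA were above every control, and SNRPD2 had log2 fold changes of 0.19 ± 0.05 (adjusted p = 0.00138) with siRNA-1 and 0.27 ± 0.05 (adjusted p = 6.79e-05) with siRNA-2, the first of which was lost with the GC and length offsets. SNRPG was at 164, 151 and 163 CPM with control siRNA, 139, 133 and 127 with siRNA-1 and 146, 143 and 148 with siRNA-2, all 6 below all controls. Its log2 fold changes were −0.26 ± 0.05 (adjusted p = 3.98e-05) and −0.12 ± 0.05 (adjusted p = 0.0582). The second passed with DESeq2, with no filter, in 1 fit over all 9 libraries, without control siRNA replicate 2 and without siRNA-2 replicate 3.

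SNRPD1, another ring subunit, was at 124, 119 and 132 CPM with control siRNA, 116, 108 and 105 with siRNA-1 and 107, 99.8 and 105 with siRNA-2. Controls were highest, and its log2 fold changes were −0.18 ± 0.05 (adjusted p = 0.00263) and −0.26 ± 0.06 (adjusted p = 0.000397), both lost with the GC and length offsets and the first also with upper-quartile normalization. SNRPB fell in each comparison (−0.12, adjusted p = 0.016, and −0.20, adjusted p = 0.00376), and both calls were lost with upper-quartile normalization, the first also without control siRNA replicate 1, siRNA-1 replicate 2 or siRNA-1 replicate 3. SNRPD3, SNRPE and SNRPF were called in neither.

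Of the 13 PRPF genes, 6 rose and 4 fell with siRNA-1, and 2 rose and 6 fell with siRNA-2. That was 76.9% called with siRNA-1 and 61.5% with siRNA-2, against 54.8% and 56.7% over all genes. PRPF40B, which encodes a U1-associated protein, rose with each siRNA. PRPF8, the core of U5 snRNP at the catalytic centre, and PRPF18, which acts in the second chemical step, were lower with siRNA-2.

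PRPF40B (chr12:49568218-49644666) was at 8.81, 8.81 and 7.54 CPM with control siRNA, 14.2, 16.5 and 17.0 with siRNA-1 and 16.2, 14.6 and 14.2 with siRNA-2. All 6 LIMp27 siRNA libraries were above all controls. It had log2 fold changes of 0.93 ± 0.11 (adjusted p = 2.06e-08) with siRNA-1 and 0.85 ± 0.12 (adjusted p = 3.4e-07) with siRNA-2, the highest log2 fold changes among members in each of these comparisons. Other genes overlap 48.7% of the exonic bases of PRPF40B in all, FMNL3 the most with 28.0% on the opposite strand. FMNL3 had log2 fold changes of 0.44 ± 0.17 (adjusted p = 0.0285) and 0.39 ± 0.19 (adjusted p = 0.0742), and its mean with control siRNA was 3.43 CPM.

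PRPF8 (chr17:1650629-1684882) was at 350.0, 349 and 335 CPM with control siRNA, 326, 349 and 349 with siRNA-1 and 257, 254 and 269 with siRNA-2. The siRNA-2 libraries lay below the other 6. PRPF8 had log2 fold changes of −0.01 ± 0.04 (adjusted p = 0.898) with siRNA-1 and −0.40 ± 0.05 (adjusted p = 8.99e-08) with siRNA-2. PRPF18 (chr10:13586927-13630868) was at 17.9, 16.9 and 14.1 CPM with control siRNA, 15.1, 15.6 and 14.3 with siRNA-1 and 10.4, 6.62 and 10.1 with siRNA-2. Its siRNA-2 libraries were again the lowest, and the log2 fold changes were −0.12 ± 0.10 (adjusted p = 0.324) and −0.83 ± 0.13 (adjusted p = 5.23e-06). AL157392.5 overlaps 42.0% of the exonic bases of PRPF18 on the same strand and is not among the genes listed in both tables.

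PRPF4, a U4/U6 snRNP protein, was at 91.1, 87.6 and 87.4 CPM with control siRNA, 67.8, 70.7 and 72.6 with siRNA-1 and 65.9, 61.7 and 71.3 with siRNA-2. Control libraries were highest, and the log2 fold changes were −0.33 ± 0.05 (adjusted p = 2.56e-06) and −0.41 ± 0.06 (adjusted p = 2.04e-06). PRPF4B, a kinase of the spliceosome, was at 104, 107 and 109.8 CPM with control siRNA, 90.6, 85.5 and 81.6 with siRNA-1 and 101, 92.2 and 94.6 with siRNA-2, lower than control in all 6. Its log2 fold changes were −0.31 ± 0.05 (adjusted p = 5.22e-06) and −0.15 ± 0.06 (adjusted p = 0.0314), and the second was positive, at 0.07, with the GC and length offsets. That call was also lost without control siRNA replicate 2, control siRNA replicate 3 or siRNA-2 replicate 2. PRPF38B, named for the yeast factor Prp38, fell in each comparison (−0.14, adjusted p = 0.0301, and −0.27, adjusted p = 0.000414), and neither call was kept with the GC and length offsets. The first was also lost with upper-quartile normalization, with DESeq2, without control siRNA replicate 1 or 3 and without siRNA-1 replicate 3, and it stood at −0.05 without replicate 3 of both groups.

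Other PRPF genes rose. PRPF31, which stabilises U4/U6, had log2 fold changes of 0.21 ± 0.05 (adjusted p = 0.000576) with siRNA-1 and 0.23 ± 0.06 (adjusted p = 0.00248) with siRNA-2. PRPF3 (0.23, adjusted p = 0.000814), PRPF19, a ubiquitin ligase of the catalytic spliceosome (0.16, adjusted p = 0.00217), PRPF38A (0.14, adjusted p = 0.0182) and PRPF6, which bridges the tri-snRNP (0.11, adjusted p = 0.0352), were higher with siRNA-1 and not called with siRNA-2. The calls of PRPF19 and PRPF6 were lost with the GC and length offsets. That of PRPF6 was also lost with DESeq2, with no filter and in 1 fit over all 9 libraries, and that of PRPF38A with no filter. PRPF38A lost its call without control siRNA replicate 1 or 2 and without siRNA-1 replicate 1 or 2, and PRPF6 without control siRNA replicate 1 or 2 and without siRNA-1 replicate 2 or 3. PRPF3 lost it without replicate 2 of both groups, and PRPF31 that with siRNA-2 without replicate 1. PRPF39 was called in neither.

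The 2 LIMp27 siRNAs were then compared directly, so that the control libraries did not enter. With siRNA-2, 5 of 63 members were higher (7.94%) and 18 lower (28.6%) than with siRNA-1, against 23.1% higher and 22.4% lower over all 14415 genes tested, of which 45.4% were called. The median log2 difference of members was −0.06, beside 0.01 over all genes. SR proteins were lower in 7 of 11 cases and higher in 1, SRSF11, and hnRNP proteins were lower in 6 of 13 and higher in 0.

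PRPF18 (−0.71 ± 0.12, adjusted p = 2.28e-05), HNRNPH3 (−0.69 ± 0.05, adjusted p = 4.95e-12), SRSF10 (−0.58 ± 0.05, adjusted p = 9.65e-11), SRSF1 (−0.53 ± 0.06, adjusted p = 5.28e-09) and SF3B6 (−0.51 ± 0.06, adjusted p = 3.4e-08) had the lowest log2 differences of siRNA-2 from siRNA-1 among called members. For HNRNPH3 the siRNA-1 libraries were those that stood apart from control, and for SRSF1, SRSF10 and PRPF18 the siRNA-2 libraries. SF3B3 (−0.50 ± 0.05, adjusted p = 3.95e-09) and PRPF8 (−0.38 ± 0.05, adjusted p = 1.85e-07) followed. Apart from HNRNPA1P48 (2.73 ± 0.21, adjusted p = 2.12e-12), the members that were higher had small differences: PRPF4B (0.18 ± 0.06, adjusted p = 0.0154), SNRPA1 (0.17 ± 0.06, adjusted p = 0.0261), SRSF11 (0.15 ± 0.06, adjusted p = 0.0228) and SNRPG (0.15 ± 0.05, adjusted p = 0.023). These 4 calls were lost without siRNA-1 replicate 2, without siRNA-1 replicate 3 and without siRNA-2 replicate 1, each of which left 1 member higher. The lower call of HNRNPM was lost in the same 3 cases, and that of HNRNPL without siRNA-1 replicate 2.

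**Figure D5:**
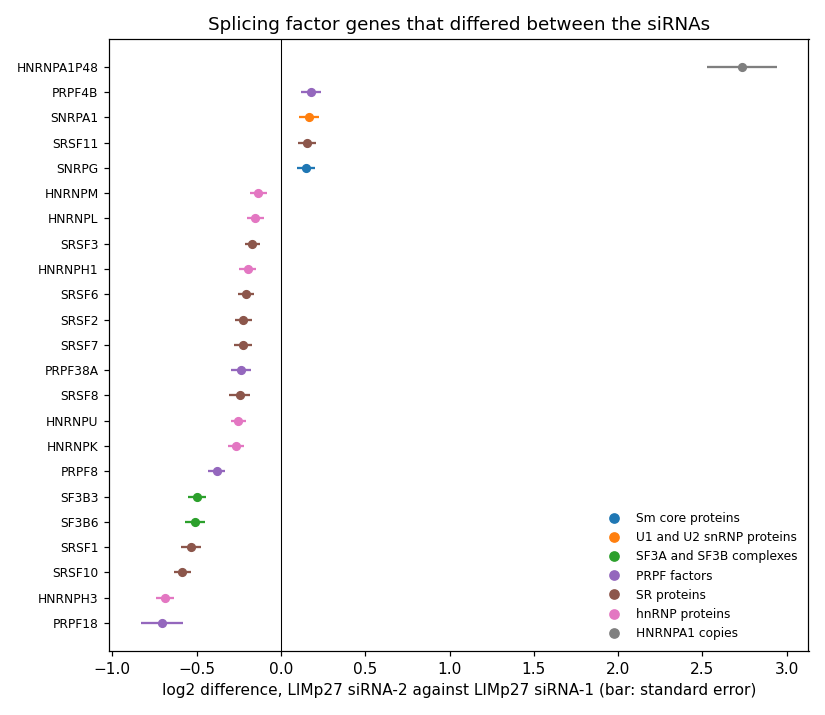
Log2 difference between siRNA-2 and siRNA-1, with standard errors (3 libraries per group), for the 23 splicing factor genes with an adjusted p under 0.05, coloured by role. On the left of 0 lie 18, down to PRPF18, and HNRNPA1P48 lies far to the right.

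Other genes of the splicing pathway were counted from 5 lists. Genes were named by the smallest adjusted p in each comparison. A gene given for siRNA-1 alone or siRNA-2 alone may therefore also have changed with the other, and its value there is not shown. Over all genes tested, 26.5% were higher and 28.3% lower with siRNA-1, and 27.7% higher and 29.0% lower with siRNA-2. Among 22 other snRNP and tri-snRNP proteins, 7 rose and 6 fell with siRNA-1, and 8 rose and 5 fell with siRNA-2. SART1, which recruits the tri-snRNP, was higher in each comparison (0.43 ± 0.05, adjusted p = 4.11e-09, and 0.46 ± 0.06, adjusted p = 1.36e-07). EFTUD2, the U5 GTPase, was lower with siRNA-1 (−0.58 ± 0.04, adjusted p = 3.29e-12), and PHF5A, a small subunit of SF3B, was higher with siRNA-2 (0.55 ± 0.07, adjusted p = 7.76e-08). LSM2 (0.42 ± 0.06, adjusted p = 3.4e-07, siRNA-1) and LSM7 (0.47 ± 0.07, adjusted p = 6.63e-07, siRNA-2), of the ring on U6 snRNA, rose.

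Among 32 proteins of the PRPF19 complex and the catalytic stage, 4 rose and 10 fell with siRNA-1, and 5 rose and 13 fell with siRNA-2. DHX15, the helicase that takes the spliceosome apart, had the smallest adjusted p in each (−0.65 ± 0.04, adjusted p = 3.01e-13, and −0.87 ± 0.05, adjusted p = 1.53e-14). SF1, which binds the branch point before U2 snRNP, and the helicase DDX46 fell with siRNA-1 (−0.58 ± 0.05, adjusted p = 8.16e-11, and −0.43 ± 0.05, adjusted p = 9.44e-09). RBM22, which contacts the catalytic RNA core, and DHX16, the helicase that starts catalysis, fell with siRNA-2 (−0.90 ± 0.07, adjusted p = 2.62e-12, and −0.52 ± 0.07, adjusted p = 9.79e-08).

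Of 22 SR-related proteins and SR kinases, 3 rose and 10 fell with siRNA-1, and 7 rose and 8 fell with siRNA-2. PNN fell in each (−0.52 ± 0.04, adjusted p = 2.49e-11, and −0.74 ± 0.05, adjusted p = 1.69e-12). TNPO3, which imports SR proteins into the nucleus, and the kinase SRPK1 fell with siRNA-1 (−0.53 ± 0.05, adjusted p = 1.49e-10, and −0.45 ± 0.04, adjusted p = 7.48e-10). With siRNA-2, SRRM1 fell (−0.71 ± 0.06, adjusted p = 9.4e-11) and LUC7L2, a U1-associated protein, rose (0.43 ± 0.07, adjusted p = 4.6e-06).

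Of 20 other splicing regulators tested, 5 rose and 7 fell with siRNA-1, and 3 rose and 9 fell with siRNA-2. PTBP3, a polypyrimidine tract binding protein, fell in each comparison (−1.02 ± 0.04, adjusted p = 5.09e-18, and −1.11 ± 0.05, adjusted p = 4.5e-17). MBNL1 fell with siRNA-1 (−0.87 ± 0.05, adjusted p = 3.63e-15) and TARDBP with siRNA-2 (−0.54 ± 0.06, adjusted p = 6.22e-09).

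Of the machinery that assembles the Sm ring on snRNAs, 2 of 18 genes rose and 11 fell with siRNA-1, and 2 rose and 12 fell with siRNA-2. The median log2 fold changes were −0.16 and −0.30. GEMIN5, which recognises snRNAs for the SMN complex, fell in each (−0.54 ± 0.05, adjusted p = 1.69e-09, and −0.88 ± 0.07, adjusted p = 3.17e-12). GEMIN4 and the cap-binding protein NCBP2 fell with siRNA-1 (−0.54 ± 0.06, adjusted p = 2.3e-09, and −0.47 ± 0.05, adjusted p = 1.29e-09). STRAP, a partner of the SMN complex, and WDR77, the partner of the methyltransferase PRMT5, fell with siRNA-2 (−0.82 ± 0.05, adjusted p = 3.31e-14, and −0.97 ± 0.06, adjusted p = 9.22e-14).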

How the data were processed

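RNA-seq counts were taken from 9 WiDr libraries, 3 for control siRNA and 3 for each LIMp27 siRNA. The authors deposited 1 table per LIMp27 siRNA with raw read counts per gene, which were used as deposited. FPKM values, computed by the authors from the counts and gene lengths, served only to compare levels between genes. The tables also hold values the authors normalized and the log2 fold changes, p-values and adjusted p-values of their own test, none of which were used. Per the labels, the build was GRCh38 and libraries were strand-specific. CASAVA is named in the submitters' processing notes with no version, and the aligner and counter are not given in the sources used here. Reads counted to genes were 14361629 to 21524623 a library.

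Genes with low counts were filtered with filterByExpr (minimum count 10), libraries were scaled by TMM, and each comparison was fitted on its own 6 libraries with the quasi-likelihood test of edgeR 4.0.16 in R 4.3.3, with no covariate. Benjamini-Hochberg adjustment covered all genes tested, with a threshold of 0.05. An SE was obtained as the size of the log2 fold change over the square root of the F statistic. CPM of each library were scaled by TMM over all 9 libraries. Control columns are the same in both tables, so the siRNAs were also compared directly, over genes listed in both. Sequence sharing and exon overlap were computed from GENCODE 29, whose gene positions match the tables for all 63 members, and promoters are those of RefSeq (GRCh38.p14). The test was checked on simulated counts. Alternatives were RLE and upper-quartile scaling, DESeq2 1.42.0, no filter, a replicate block, 1 fit over all 9 libraries, a threshold of 0.01, leaving out single replicate numbers and single libraries, and, added after the data were seen, GC content and length offsets and leaving out the HNRNPA1 copies and the low U2AF genes.

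Members and lists were chosen with earlier results of these data known. Values in every library are given for the 5 highest and 5 lowest called members of each comparison (mean of 100 or more normalized counts), and for up to 2 called members per role with the smallest adjusted p, and other lists were named by the 3 smallest adjusted p of each comparison with control siRNA. Of the genes so chosen, 2 are not reported here.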

Additional observations from a re-analysis of the deposited data

Results flagged for a closer look

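The responses to the 2 LIMp27 siRNAs differed for 23 members in the direct test between them (edgeR, adjusted p under 0.05). The log2 difference of LIMp27 siRNA-2 from LIMp27 siRNA-1 was below 0 for the SR genes SRSF1 (−0.53), SRSF10 (−0.58), SRSF2 (−0.22), SRSF3 (−0.17), SRSF6 (−0.21), SRSF7 (−0.23) and SRSF8 (−0.24). It was also below 0 for the hnRNP genes HNRNPH1 (−0.20), HNRNPH3 (−0.69), HNRNPK (−0.27), HNRNPL (−0.15), HNRNPM (−0.13) and HNRNPU (−0.25), and for PRPF18 (−0.71), PRPF38A (−0.24), PRPF8 (−0.38), SF3B3 (−0.50) and SF3B6 (−0.51). It was above 0 for HNRNPA1P48 (2.73), PRPF4B (0.18), SNRPA1 (0.17), SRSF11 (0.15) and SNRPG (0.15).

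With 3 libraries a group, no library was tested for standing apart from its group.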

How the results depend on the processing

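Of the members called in the comparison with control, 17 of 38 calls with siRNA-1 and 24 of 37 with siRNA-2 held under each of the 17 alternatives run per gene, as did 15 of 23 in the direct comparison. The number of members lower with siRNA-1 was 14 with upper-quartile scaling. Members higher with siRNA-2 numbered 17 with upper-quartile scaling and 17 with GC and length offsets, and members higher in the direct comparison numbered 10 with these offsets and 1 at a threshold of 0.01.

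The median log2 fold change of members with siRNA-1 became 0.0572 with upper-quartile scaling and −0.0159 with GC and length offsets. With siRNA-2 it became −0.0293 and −0.0502, respectively, and −0.140 with no filter. In the direct comparison it was −0.0788 with upper-quartile scaling and −0.0758 in 1 fit over all 9 libraries. With GC and length offsets, among members called with or without them, 4 changed sign with siRNA-1 (SRSF3 to 0.0098, HNRNPU to 0.114, HNRNPK to 0.088 and SF3B5 to −0.167) and 4 with siRNA-2 (SRSF5 to 0.111, PRPF4B to 0.0743, SRSF11 to 0.122 and SNRPB2 to 0.143). The causes were not tested.

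Leaving out a replicate number or a library gave 9 to 18 members higher and 17 to 22 lower with siRNA-1, with 9 higher without replicate 2 of both groups. It gave 7 to 11 higher and 26 to 30 lower with siRNA-2, and 1 to 7 higher and 16 to 21 lower in the direct comparison, where 1 was higher without replicate 1 and 2 without replicate 3. Medians ranged from −0.0750 to −0.0235 with siRNA-1, where the value was −0.0606 without control siRNA replicate 2 and −0.0524 without LIMp27 siRNA-1 replicate 2. They ranged from −0.170 to −0.103 with siRNA-2, with −0.170 without control siRNA replicate 2, and from −0.0713 to −0.0440 in the direct comparison.

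Same-numbered libraries did not deviate together (r from −0.0809 to 0.0303), so the numbers were not taken as pairs. With the replicate number as a block, 16 members were higher and 22 lower with siRNA-1, 9 and 29 with siRNA-2, where SNRPG gained a call, and 5 and 18 in the direct comparison.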
